A study of Orestias ascotanensis with 42 samples.

Results

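In Orestias ascotanensis, an Andean killifish, 73 of 21024 genes were far more abundant in muscle than in gills yet also high in skin, and these genes are described here across tissues, seasons and single libraries. They were chosen from the measured levels. A gene was taken when its mean in muscle was at least 30 times its mean in gills and between 2 and under 4 times its mean in skin. Levels were CPM, each count scaled to its library's total, with 0.5 CPM added before each ratio. Of the 141 genes that met the gill condition, 14 stood at 4 or more over skin, 54 stood under 2, and the 73 members lay between. The ratios that chose the members are given as a description and were not tested.

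The fish were wild, came from the Ascotán salt pan at 3740 m, and were netted in the southern summer of 2020 (7 fish) and the southern winter of 2019 (7 fish). No strain or age is given in the labels, and their treatment tag holds the season (called the season tag here). Each fish gave 1 muscle, 1 skin and 1 gill library of unstranded poly-A RNA, so that the 42 libraries formed 6 groups of 7. Each season was sampled in 1 year and 1 collection, and the season, the year and the collection cannot be told apart.

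Skeletal muscle fills its RNA pool with a small number of very abundant transcripts, for contractile filaments, calcium handling and energy supply. Fish skin consists of an epidermis with mucous cells over a dermis that holds the scales, and on the trunk it lies over swimming muscle. Gill filaments carry ion-transporting, mucous and pavement cells over blood vessels, with small striated muscles at the base of the filaments and arches. In bulk libraries, fewer cells of a type and less RNA per cell cannot be told apart. The files pair the identifiers with no gene names, so the members could not be checked against markers of muscle, epidermis, dermis or blood, and they are called here by the rule that chose them. No role is given to any identifier, and no list of named muscle genes could be counted.

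Library totals ran from 28009075 to 154396513 counts in 41 libraries and stood at 6074371 in muscle summer 4. That library, skin summer 3 and skin summer 4 stood apart, with a median Spearman correlation under 0.88 to the other libraries of their tissue. There were 5 sets of libraries within a group, each of 2 to 4 libraries, that were much closer to each other than other libraries of the same group, among them muscle summer 3, 5, 6 and 7 and skin winter 2, 6 and 7. In 4 libraries the season tag contradicts the title, and the title was followed. No source says whether each library came from a separate preparation, and p-values measure the spread between these libraries.

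The 73 genes took a mean of 52.0% of all counts in muscle, 18.0% in skin and 0.595% in gills (14 libraries each). The 2 members with the highest mean in muscle were OAV3G000006406 and OAV3G000008821. OAV3G000006406 averaged 77401 ± 18289 CPM in muscle, 23624 ± 11286 CPM in skin and 945 ± 606 CPM in gills (SD, n = 14 each). OAV3G000008821 averaged 65088 ± 16321 CPM in muscle, 23476 ± 18589 CPM in skin and 679 ± 364 CPM in gills. OAV3G000006406 was the most abundant member in muscle, while OAV3G000018940 led in skin and gills, with means of 24143 and 1177 CPM. The member with the lowest muscle mean, OAV3G000001074, stood at 23.3 CPM in muscle, 9.89 CPM in skin and 0.0693 CPM in gills. CPM is not divided by transcript length, so the order of the genes is an order of counts and not of molecules.

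A few genes carried most of the sum. In muscle, 5 members made up 50% of the members' counts and 15 made up 90%; in skin 5 and 16 did, and in gills 4 and 15. The 12 members with the highest muscle means held 85.3% of the members' mean level in muscle, and all of them were also the 12 highest in skin. In gills, 9 of these genes were among the 12 highest. Above 10000 CPM stood 13 members in muscle, 6 in skin and 0 in gills. Of the 20 most abundant genes of a tissue, 15 were members in muscle, 12 in skin and 0 in gills. At the low end, 12 members averaged under 1 CPM in gills, 3 had at least 1 gill library without a count, and 1 had a skin library without a count.

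**Figure D1:**
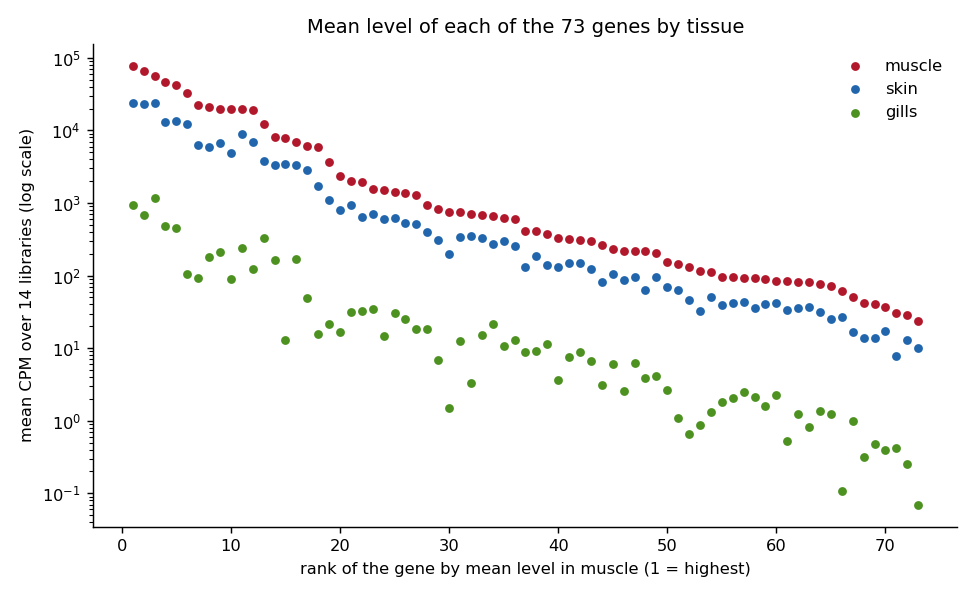
Mean CPM over 14 libraries (y axis, log scale) of each of the 73 genes in muscle, skin and gills (colours), with the genes ordered by their muscle mean (x axis). With 0.5 CPM added, muscle lies 2.02 to 4.00 times above skin and at least 30.4 times above gills.

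The order of the genes was much alike in the tissues. Across the 73 genes, the log2 mean level in muscle and in skin correlated at r = 0.997, in muscle and in gills at r = 0.959, and in skin and in gills at r = 0.962. These values are across genes, which are not independent replicates, and the narrow range of muscle over skin set by the rule fixes the first of them in part. Within the allowed range the members crowded at the low end, since 42 lay at 2 to 2.5 times skin, 14 at 2.5 to 3 and 17 at 3 to 4, with a median of 2.46. Muscle over gills had no upper limit and ran from 30.4 to 580 with a median of 52.3, and 16 members exceeded 100. The 12 most abundant members had a median muscle over gills of 96.4, and the other 61 had one of 48.1. Skin over gills, which both limits together hold up, was at least 8.99, with a median of 21.2.

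Just inside the limit at 30 times gills lay a gene at 30.4, and just outside one at 29.9. At the limit of 2 over skin the neighbours stood at 2.02 and 2.00, the second just under the limit, and at the limit of 4 at 4.00, just under it, and 4.03. The ratios rest on library totals, of which the members took over 40% in every muscle library. Scaled by TMM, the trimmed mean of M-values that sets aside the most extreme genes, the median of muscle over skin was 5.72, and 72 of the 73 genes stood at 4 or more. The same rule on TMM-scaled levels finds 128 genes and shares 1 with the 73, which is 1.37% of the members and 0.781% of the 128. Without the 3 libraries that stood apart, the rule finds 77 genes, of which 65 were shared.

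The share of counts taken by the 73 genes had an SD of 4.65 percentage points over the 14 muscle libraries, 5.74 over the skin libraries and 0.303 over the gill libraries. In muscle it averaged 49.98% ± 4.50 in summer and 53.9% ± 4.20 in winter (SD, n = 7 each). Summer muscle ran from 43.3% to 56.9% with a median of 49.5%, and winter muscle from 48.3% to 61.8% with a median of 52.6%. In skin the share averaged 19.97% ± 6.66 in summer and 16.01% ± 4.22 in winter (n = 7 each). Every muscle library stood above every skin library, and every skin library above every gill library. The order of the tissues follows from the rule.

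In summer skin the share was 18.7%, 13.8%, 31.4%, 12.3%, 24.4%, 16.6% and 22.6% in fish 1 to 7. In winter skin it was 18.7%, 13.7%, 10.2%, 20.8%, 21.2%, 14.2% and 13.3% in fish 1 to 7. The highest summer library, summer 3, held 3 in 10 of its counts in these genes, and the lowest winter library, winter 3, held 1 in 10, but the seasons overlapped over most of their range. The mean difference was 3.95 percentage points, within the SD of either season, and leaving out single libraries moved it between 2.05 and 5.23. Without the 2 skin libraries that stood apart, summer skin averaged 19.2% ± 4.33 (n = 5). Counting error was small against this spread: the 95% binomial interval of the share (Wilson's method) was 31.3% to 31.4% in skin summer 3 and 10.23% to 10.25% in skin winter 3. Such intervals cover counting error only and take each count as an independent draw. Of counts from 1 to 10, 75.8% were even, an excess that independent draws would not give, so the intervals may be too narrow.

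In gills the share averaged 0.663% ± 0.209 in summer and 0.528% ± 0.381 in winter (SD, n = 7 each). Summer gills ran from 0.302% to 0.932% with a median of 0.666%, and winter gills from 0.254% to 1.35% with a median of 0.495%. Gills winter 4, at 1.35%, stood above all other gill libraries, and the next highest winter library was at 0.505%. In muscle the difference of the means was -3.95 percentage points within the SD of either season. In gills it was 0.135, and leaving out single libraries moved it between 0.0891 and 0.272, the highest without gills winter 4.

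**Figure D2:**
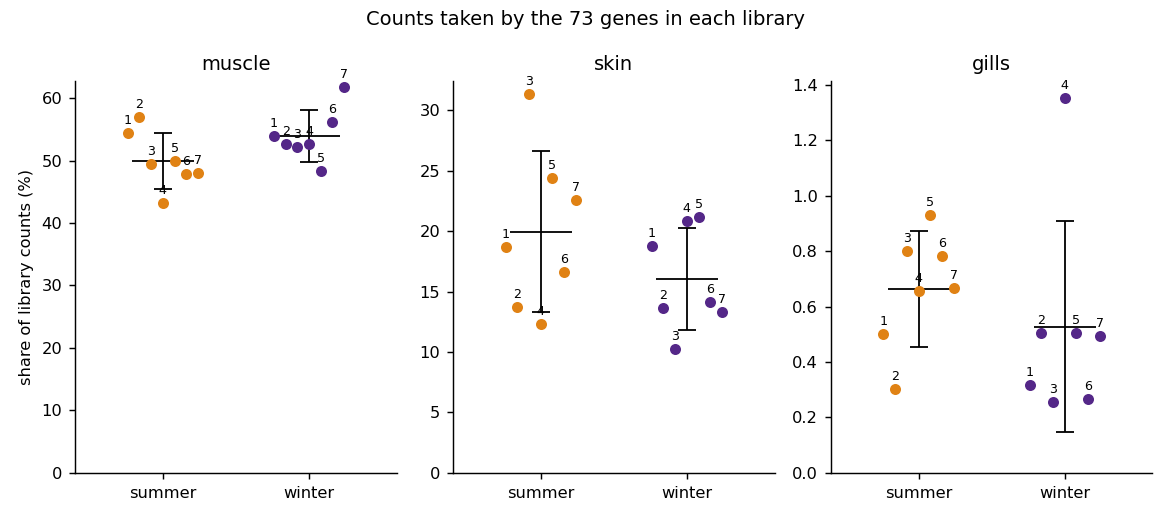
Share of each library's counts taken by the 73 genes (y axis, percent, a separate scale for each tissue from 0), with summer left of winter. Points are libraries numbered by fish, and bars give the mean and SD of 7. In skin, summer 3 is highest at 31.4% and winter 3 lowest at 10.2%, and in gills winter 4 stands off at 1.35%.

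Within fish, the summed level was higher in muscle than in skin in 14 of 14 fish. The muscle share was 1.58 times the skin share in summer fish 3 and 5.09 times in winter fish 3, the extremes of the 14 fish. Gene by gene, 61 members were higher in muscle than in skin in all 14 fish and 12 were not, the least regular being higher in 6 fish. The rule set muscle over skin on the means of these same libraries, so these counts follow from it in part and test nothing. No member kept to a ratio of 2 to under 4 in every fish, so the rule describes the means and not single fish. The skin share of a fish and its gill share correlated at Pearson's r = 0.542 and Spearman's rho = 0.648 (n = 14), and at r = 0.498 without the 2 fish farthest from the median skin share. The skin share and the muscle share of a fish correlated at r = -0.300 and rho = -0.279. These correlations are descriptions, and the shares of a fish have the season in common.

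Over the 14 skin libraries the members largely moved together. For each gene, log2 CPM was correlated with the log2 summed CPM of the other 72 genes. The median r in skin was 0.617, with 44 members above 0.5 and 2 below 0. Of 15767 other genes measured the same way, 3.11% exceeded 0.5, and their median was -0.315. In gills the members moved together more closely, with a median r of 0.944 and 48 members above 0.9. Of 16163 other genes in gills, 0.804% exceeded 0.9, and their median was -0.164. In muscle the median was -0.166 and 49 members were below 0, where the median of 13982 other genes was lower still, at -0.312. Above 0.5 in muscle stood 4 members and 2.75% of the other genes. The points share library totals, of which the members are a large part in muscle, and at a fixed total 1 gene's gain lowers the CPM of the rest. What part this has in the correlations was not tested.

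**Figure D3:**
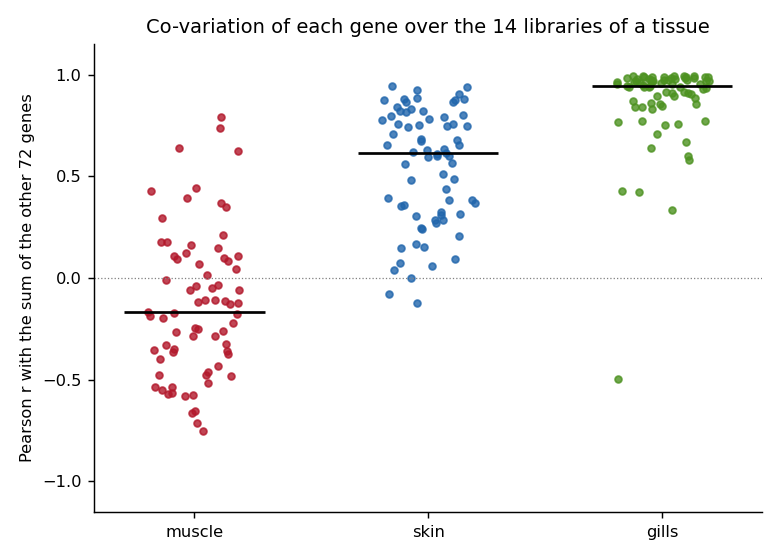
Pearson's r of each gene's log2 CPM with the log2 summed CPM of the other 72 genes (y axis) over the 14 libraries of a tissue (x axis). Each point is 1 gene and each line a median, which is -0.166 in muscle, 0.617 in skin and 0.944 in gills.

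The first principal component of the members' log2 CPM held 29.1% of their variance in muscle, 42.4% in skin and 86.5% in gills, against 40.8%, 62.0% and 23.2% over all genes in the same tissues. Without the libraries that stood apart, the order in skin turned, with 53.7% for the members and 49.5% over all genes. The skin median r was then 0.799, with 63 members above 0.5 and 11.6% of other genes above 0.5. The coefficient of variation over the 14 libraries had a median of 28.4% in muscle, 37.8% in skin and 49.8% in gills.

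OAV3G000016778 and OAV3G000016653 followed the other members most closely in skin, with r = 0.941 and 0.940. OAV3G000016653 ran from 8278 to 28413 CPM in summer skin, with a median of 14809, and from 8561 to 17128 CPM in winter skin, with a median of 10244. OAV3G000016778 ran from 27.96 to 116 CPM in summer skin, with a median of 46.9, and from 22.4 to 72.3 CPM in winter skin, with a median of 34.4. Both were highest in skin summer 3, and the seasons overlapped. OAV3G000010823 and OAV3G000004906 followed the others least, with r = -0.12 and -0.08, and at -0.59 and -0.36 without the libraries that stood apart. OAV3G000010823 ran from 1909 to 5077 CPM in summer skin, with a median of 3230, and from 1334 to 4307 CPM in winter skin, with a median of 3500. In gills it followed the others at r = 0.934.

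The 14 genes at 4 or more over skin moved with the members in skin. They took 1.38% ± 0.786 of the counts in summer skin and 0.677% ± 0.216 in winter skin (SD, n = 7 each). Their share correlated with that of the members at r = 0.852 and rho = 0.754 over 14 skin libraries, and at r = 0.658 without the 2 libraries with the members' share farthest from the median. The 54 genes at under 2 over skin took 3.28% ± 0.656 in summer skin and 3.30% ± 0.486 in winter skin. Their share correlated with that of the members at r = 0.280 and rho = -0.0154. Without the 2 skin libraries that stood apart, this turned to r = -0.342 and rho = -0.538 (n = 12). The share of the 14 genes then correlated with that of the members at r = 0.877 and rho = 0.923. In muscle the genes at 4 or more took 5.76% ± 1.37 of the counts in summer and 3.20% ± 0.470 in winter, and over the 14 libraries they went against the members, at r = -0.563. In gills the shares of both lists followed that of the members, at r = 0.989 for the genes at 4 or more and 0.988 for the genes under 2. The library total and the members' share in skin correlated at r = -0.141.

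The 2 skin libraries that stood apart differed from the rest in the levels of many members. In the sum of the set only skin summer 3 did, at 31.4%. Skin summer 4, at 12.3%, lay within the 10.2% to 24.4% of the other 12 skin libraries. Each gene's CPM was set against its median over the other 12 skin libraries, so a shift of the whole set enters along with its make-up. In skin summer 3, 28 members were over 2-fold higher and 13 over 2-fold lower. In skin summer 4, 1 was over 2-fold higher and 22 over 2-fold lower. The other 12 libraries had 1 to 16 members beyond 2-fold, the most in skin winter 3, with 1 higher and 15 lower. The log2 deviations of skin summer 3 and skin summer 4 correlated at r = 0.891 across the 73 genes; 13 genes were over 2-fold lower in both, 1 was higher in both, and 0 went opposite ways. Both libraries were set against the same median, which leaves both out, and its part in this correlation was not tested. Skin summer 3 was the highest library for 35 members, skin summer 4 was the lowest for 34 and skin winter 3 the lowest for 22.

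The 2 members with the highest mean in muscle went opposite ways in skin summer 3. OAV3G000006406 was at 8963 CPM in skin summer 3 and 3371 CPM in skin summer 4, below the 11512 to 41636 CPM of the other 12 skin libraries. OAV3G000008821 was at 85828 CPM in skin summer 3, above all other skin libraries, and at 27206 CPM in skin summer 4, the next highest. Over all 14 libraries, OAV3G000006406 ran from 3371 to 41636 CPM in summer skin, with a median of 27561, and from 11512 to 37630 CPM in winter skin, with a median of 18561. OAV3G000008821 ran from 15653 to 85828 CPM in summer skin, with a median of 24655, and from 9799 to 21082 CPM in winter skin, with a median of 15422. What these 2 libraries have in common was not tested.

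**Figure D4:**
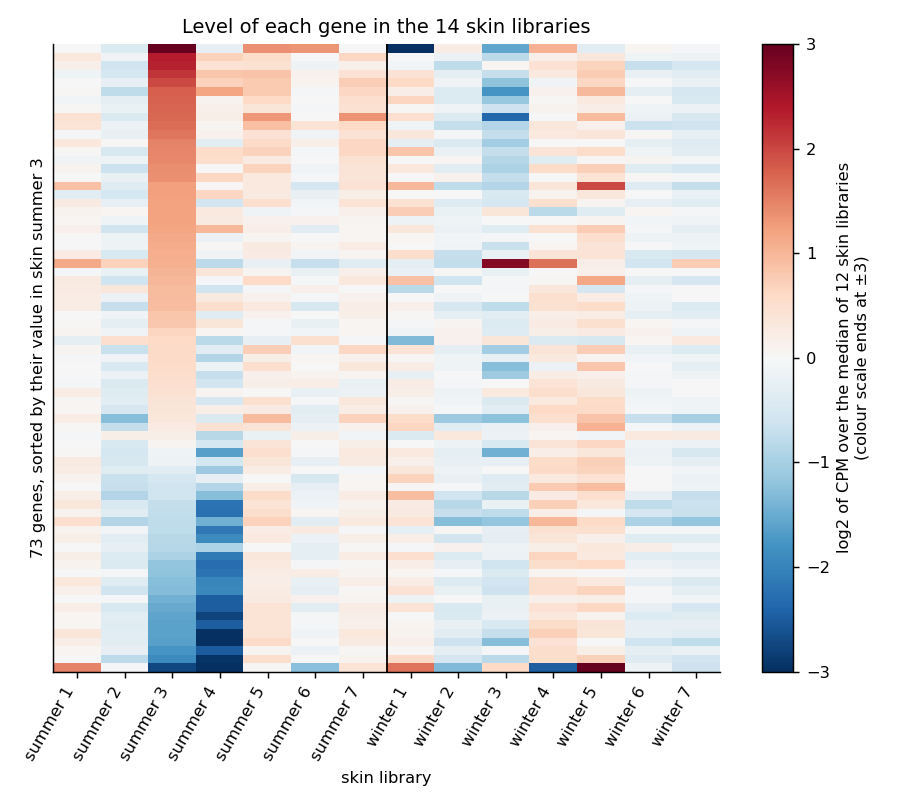
Log2 of each gene's CPM over its median in the 12 skin libraries that did not stand apart (colour, ending at ±3), with the 73 genes in rows sorted by their value in skin summer 3 and the libraries in columns, summer left of winter. In summer 3, 28 genes are over 2-fold higher and 13 over 2-fold lower, and in summer 4 22 are over 2-fold lower, many of them the same rows.

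The seasonal difference was not used in choosing the members, and it was tested for each gene within each tissue, as summer over winter. In muscle 8 of the 73 genes passed edgeR's quasi-likelihood test at a Benjamini-Hochberg adjusted p under 0.05 over all genes tested, and all 8 fell in summer. Over all genes, 6.40% passed in muscle, with 4.04% lower and 2.36% higher. At an unadjusted p under 0.05 stood 22 members in muscle, 5 higher and 17 lower, against 24.2% of all genes (10.3% higher and 13.9% lower). OAV3G000018940, the most abundant member in skin, and OAV3G000010139 had the largest decreases. The median log2 fold change of the 73 genes was -0.19 (24 positive and 49 negative), against -0.01 over all genes tested, of which 49.4% were positive. With library totals alone as the scale the median of the 73 was -0.02, with 36 of 73 positive, where the median of all genes was 0.04.

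OAV3G000018940 ran from 31641 to 46710 CPM in summer muscle, with a median of 34727, and from 55962 to 97579 CPM in winter muscle, with a median of 73846. No summer library reached the lowest winter library. It averaged 36754 ± 5381 CPM in summer muscle and 76973 ± 16027 CPM in winter muscle (SD, n = 7 each), with a log2 fold change of -1.29 ± 0.29 (SE; edgeR adjusted p = 0.0174). OAV3G000010139 ran from 368 to 587 CPM in summer muscle, with a median of 406, and from 530 to 1259 CPM in winter muscle, with a median of 757. The groups overlapped, but all 7 summer libraries lay under the winter median, and the log2 fold change was -1.29 ± 0.32 (edgeR adjusted p = 0.0283).

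None of the 73 genes passed edgeR's test as higher in muscle, while DESeq2, limma voom and edgeR with library totals each called 1 and edgeR on the season tag called 2. Over all genes these 4 settings called 888, 468, 191 and 428 as higher, in that order. The one with the smallest p on that side, OAV3G000019574, averaged 111 ± 9.57 CPM in summer muscle and 78.0 ± 40.0 CPM in winter muscle, with a log2 fold change of 0.52 ± 0.16 (edgeR adjusted p = 0.0682). This gene was called by limma voom (adjusted p = 0.0423) and DESeq2 (adjusted p = 0.0196), and by edgeR on the season tag (adjusted p = 0.0388) or without muscle winter 4 (adjusted p = 0.0365). The 2 most abundant members did not pass: OAV3G000006406 had a log2 fold change of -0.19 ± 0.31 and OAV3G000008821 one of 0.05 ± 0.30. With near-identical libraries averaged into 1, which leaves fewer summer muscle samples, 0 genes passed in muscle, and the log2 fold change of OAV3G000018940 was -1.21 (edgeR adjusted p = 0.208). Without single muscle libraries the members that passed numbered 1 to 10, and the genes that passed 430 to 1523. The count of members was 1 without any one of muscle summer 3, 5, 6 or 7 or muscle winter 2 or 6. In those omissions 430 to 472 genes passed. It was 3 without winter 7, where 644 genes passed. Without summer 4, the library with the low total, it was 4, while 1523 of 17375 genes passed. It was 5 without summer 1 or 2, where 826 and 1090 genes passed. OAV3G000018940 passed in each of these omissions, and OAV3G000010139 lost its call in 7 of them, without summer 3, 5, 6 or 7 or winter 2, 6 or 7 (edgeR adjusted p of 0.0584 to 0.0651).

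In skin 0 of the 73 genes passed edgeR's test, as did 0% of 18260 genes. At an unadjusted p under 0.05 stood 15 members, all higher in summer, against 11.3% of all genes (9.21% higher and 2.09% lower). Without skin summer 3 the 15 became 3, where 1028 of 18367 genes had such a p. With library totals alone they became 5, where 1276 of 18260 genes did. The smallest adjusted p among the members was 0.438. DESeq2 called 65 genes, 3 of them members, and limma voom 0 genes. The median log2 fold change of the members was 0.36 (54 positive and 19 negative), against 0.00 over all genes, of which 50.1% were positive. Without skin summer 3 the median was 0.11, with 47 of 73 positive. With library totals alone as the scale it was 0.07, with 42 of 73 positive, where the median of all genes was -0.19. The members largely move together in skin, so such counts are not 73 independent observations.

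OAV3G000020362 had the smallest p of the members on the higher side in skin. It ran from 386 to 1386 CPM in summer skin, with a median of 584, and from 238 to 553 CPM in winter skin, with a median of 286. The groups overlapped, though the 7 summer values all exceeded the median of winter, and the log2 fold change was 1.32 ± 0.40 (edgeR adjusted p = 0.438). Without skin summer 3 it was 0.80. OAV3G000010032 stood on the lower side, at -1.52 ± 1.046 (edgeR adjusted p = 0.530), and at -0.12 without skin winter 5. It ran from 0 to 12.5 CPM in summer skin, with a median of 4.01, and from 0.331 to 53.6 CPM in winter skin, with a median of 3.63. In muscle 82.3% of its summed level lay in muscle summer 4, at 349 CPM, so its place among the 73 genes rests on that library.

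In gills 71 members were frequent enough to be tested. None passed edgeR's test, as did 0% of 18409 genes; DESeq2 called 379 genes, none of them members, and limma voom 0 genes. At an unadjusted p under 0.05 stood 3 members, all higher in summer, against 14.5% of all genes (6.08% higher and 8.42% lower). Nonetheless 69 of 71 had a positive log2 fold change, with a median of 0.35 against 0.00 over all genes, of which 50.4% were positive. With near-identical libraries averaged, 58 of 71 were positive, the median was 0.18 and 0 members had an unadjusted p under 0.05. The members move together in gills, so these counts are not 71 independent observations. Without gills winter 4, the library with the highest share, the median was 0.76, and 57 of 71 members had an unadjusted p under 0.05, where 2873 of 18473 genes did; still 0 passed after adjustment. Without gills winter 3 the median was 0.22, and without gills summer 5 it was 0.23. OAV3G000002040 had the smallest p. It ran from 4.09 to 13.0 CPM in summer gills, with a median of 7.91, and from 2.44 to 11.1 CPM in winter gills, with a median of 3.32. The groups overlapped, and the log2 fold change was 0.97 ± 0.36 (edgeR adjusted p = 0.250).

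**Figure D5:**
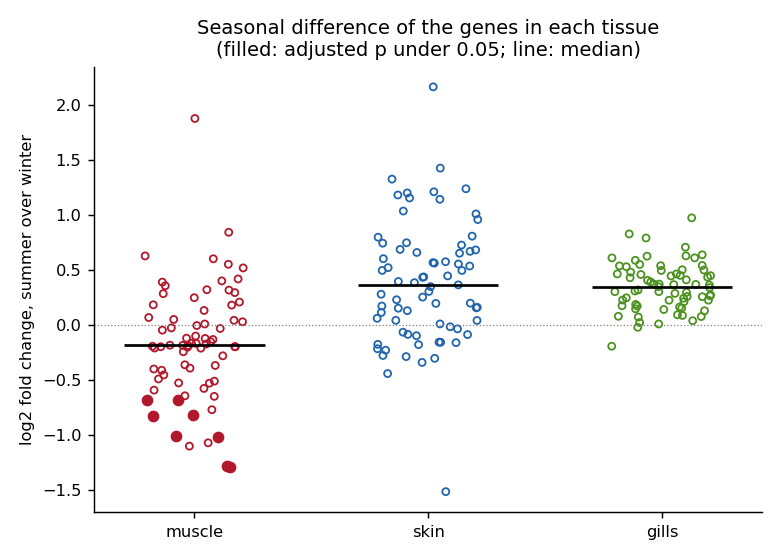
Log2 fold change of summer over winter (y axis) of the 73 genes in muscle and skin and of the 71 tested in gills (x axis). Filled points passed edgeR's test at an adjusted p under 0.05, which 8 genes did in muscle, all below 0, and lines give the medians of -0.19, 0.36 and 0.35.

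The difference between the tissues was tested as the seasonal change in muscle minus that in skin, in 1 fit of all 42 libraries. Of the 73 genes, 1 passed, OAV3G000018940, on the lower side, where 4.83% of all genes passed, 4.35% lower and 0.483% higher. Its seasonal change in muscle minus that in skin was -1.63 ± 0.45 on the log2 scale (edgeR adjusted p = 0.0278). In skin it averaged 24455 ± 6052 CPM in summer and 23831 ± 5498 CPM in winter (SD, n = 7 each), and summer and winter skin overlapped almost fully. The call was lost without the libraries that stood apart (-1.39, edgeR adjusted p = 0.0543), with skin summer 3 alone left out (-1.40, edgeR adjusted p = 0.0622), and with library totals as the scale (-1.10, edgeR adjusted p = 0.117). It was also lost without muscle winter 2, 6 or 7, in limma voom (-1.48, adjusted p = 0.112) and with near-identical libraries averaged (-1.49, edgeR adjusted p = 0.187).

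Of the 73 genes, 66 had a negative difference between the tissues and 7 a positive one, with a median of -0.67 against -0.11 over all genes. Positive were 9.59% of the members and 42.3% of all genes. At an unadjusted p under 0.05 stood 15 members, all lower, against 19.6% of all genes (4.40% higher and 15.2% lower). Without skin summer 3 the 15 became 5, where 3349 of 19346 genes had such a p. In limma voom they became 5, where 2663 of 19258 genes did, and with library totals alone 3, where 2451 did. With library totals as the scale the median was -0.15, with 22 of 73 positive, and the median of all genes was 0.19. Without skin summer 3 the median was -0.35, with 15 of 73 positive, and without all libraries that stood apart 16 were positive. The members largely move together in skin, so these counts are not 73 independent observations. In skin the 8 genes that fell in muscle had log2 fold changes from -0.28 to 0.44, of which 4 were positive and 4 negative. In gills all 8 were positive, from 0.07 to 0.63, as were 69 of the 71 members tested there. Their median in gills was 0.18, against 0.35 for the 71. None of the 8 passed in skin or in gills. Apart from OAV3G000018940, none of the 8 passed the test of the difference between muscle and skin, so for the other 7 a differing season effect was not shown. By CPM, which is scaled to library totals and not by TMM, OAV3G000018940 was higher in each of the 7 winter muscle libraries than in every summer one. Within muscle, the TMM factors of the winter libraries fell into 2 ranges. They were 1.32 to 1.34 in winter 1, 4 and 5 and 0.641 to 0.8795 in winter 2, 3, 6 and 7. With library totals as the scale, which leaves these factors out, OAV3G000018940 had a log2 fold change of -1.07 in muscle (edgeR adjusted p = 0.00372). OAV3G000010139 had -1.03 (edgeR adjusted p = 0.0137), and 6 members and 444 of 17181 genes passed. That setting was chosen after seeing the data. Beyond it, the part of this split in the muscle result was not tested.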

How the data were processed

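Unstranded poly-A RNA of 42 libraries was read as 150-base pairs, per the labels' protocols, and the authors deposited the raw gene counts in 1 table. Tools listed in the submitters' processing notes are HISAT2 2.2.1, SAMtools 1.10, Trim Galore 0.6.6, Cufflinks and FastQC. Which build, annotation and counter were used is not given in the sources used here. Of counts from 1 to 10, 75.8% were even. Without strand, reads of antisense or overlapping genes cannot be separated, and near copies are uncertain. CPM was computed from the deposited counts.

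Groups follow the sample titles. R 4.3.3, edgeR 4.0.16 (robust quasi-likelihood test, TMM, filterByExpr, two-sided, threshold 0.05), limma 3.58.1 and DESeq2 1.42.0 were used on all genes, after the tests were tried on simulated data. Libraries were called near-identical where the scaled median absolute deviation of their log2 ratio was under 0.15. The members and lists were chosen with earlier results of these data known. Per comparison, the genes named were those past the threshold with the largest change, at most 2 each way, or else the smallest p, among members whose average log2 CPM was 1 or more; for levels the 2 highest in muscle; for co-variation the 2 highest and 2 lowest in skin. Alternatives were RLE scaling, library totals, no filter, DESeq2, limma voom, blocks, the season tag, averaged near-identical libraries, libraries left out, and other forms of the rule. Muscle and skin of a number within a season come from the same fish, per the labels; their deviations from the group means correlated at a mean r of 0.154, with 8 of 14 fish over 0.1.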

Additional observations from a re-analysis of the deposited data

Results flagged for a closer look

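The share and 12 named genes in each tissue and season made 78 groups of 7 libraries. In 18 of them a library stood far from the others by Dixon's criterion, which chance gives in about 1 in 20 groups. The groups share libraries, the members move together, and the genes were named from these data. The 18 are therefore not independent and cannot be set against that rate. Of the 18, 9 were gills winter 4. There the share of the 73 genes was 1.35%, OAV3G000006406 stood at 2596 CPM, OAV3G000008821 at 1349, OAV3G000018940 at 2522 and OAV3G000020362 at 55.4. In the same library OAV3G000002040 stood at 11.1 CPM, OAV3G000004906 at 0.638, OAV3G000016653 at 970 and OAV3G000016778 at 2.58. It was the highest gill library for 61 of the 73 genes.

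In skin summer 3, OAV3G000008821 stood off at 85828 CPM, OAV3G000020362 at 1386 CPM and OAV3G000002040 at 464 CPM. Single genes stood off in other libraries. OAV3G000010032 was at 349 CPM in muscle summer 4, 38.2 CPM in muscle winter 3 and 53.6 CPM in skin winter 5. OAV3G000004906 was at 205 CPM in muscle winter 2 and 56.7 CPM in skin winter 3. OAV3G000010823 was low in muscle summer 2, at 4153 CPM, where the next summer library had 5144 CPM.

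The seasonal change of OAV3G000018940 differed between muscle and skin, by -1.63 on the log2 scale, in the test of the difference itself (edgeR adjusted p = 0.0278). The call was lost in several settings given above, among them without skin summer 3 and in limma voom.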

How the results depend on the processing

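The number of members was 128 under TMM-scaled CPM. In muscle, 1100 genes and 8 members passed. Library totals alone (chosen after seeing the data) gave 444 genes and 6 members, and DESeq2 gave 2306 and 14. The individual number as a block gave 722 and 3, and averaging near-identical libraries gave 0 and 0. Without the libraries that stand apart, 1523 genes and 4 members passed. In skin, DESeq2 called 65 genes and 3 members, and without the libraries that stand apart edgeR called 2 genes and 0 members. In gills DESeq2 called 379 genes and 0 members. For muscle minus skin, 931 genes and 1 member passed. Library totals gave 224 and 0, DESeq2 1596 and 2, limma voom 121 and 0, the season tag 1519 and 3, and averaging 54 and 0. It was 1588 genes and 1 member without the libraries that stand apart, and 1143 and 2 without the libraries whose tag conflicts. The member that passed without the libraries that stand apart was not OAV3G000018940. The median of muscle minus skin was -0.15 with library totals. Leaving out single libraries gave 430 to 1523 genes and 1 to 10 members in muscle, 0 to 135 genes in gills, 404 to 1487 genes and 0 to 2 members for muscle minus skin, and medians of -0.25 to -0.06 in muscle, 0.11 to 0.48 in skin, 0.22 to 0.76 in gills and -0.74 to -0.35 for muscle minus skin. OAV3G000010032 in muscle minus skin was 3.25 and turned to -0.14 with the fish as a block, to -1.24 without the libraries that stand apart and, in omissions of single libraries, ranged from -0.81 to 4.61. With the fish as a block, muscle minus skin kept 1 member, OAV3G000018940 (-1.53, edgeR adjusted p = 0.0480), and 713 genes. Between seasons a number names different fish: deviations of same-numbered libraries had a median r of -0.0165, with 8 of 21 pairs over 0.1, and under that block OAV3G000010139 had -1.11 (edgeR adjusted p = 0.0582) in muscle, while 0 members passed in skin and gills. The cause of these shifts was not tested, except that averaging and omission leave fewer samples. Over all comparisons outside omissions of single libraries, 117 values stayed within the spread or 1.5 times and 26 moved further. In omissions of single libraries 222 stayed and 30 moved. A median was scored as stayed if it shifted by less than the members' median SE, which was 0.343 in skin. Falls of the skin median from 0.36 to 0.11 without skin summer 3 and to 0.07 with library totals were scored so. A count of 0 that remained 0 was scored so too, as most counts of members in skin and gills were. These totals therefore do not measure how steady the results were.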
